A study of Homo sapiens with 6 samples.

Results

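Hypoxia-inducible factor (HIF) and the enzymes that sense oxygen for it are encoded by a small set of genes, and 10 of them were followed here by their symbols: the alpha subunits HIF1A, EPAS1 and HIF3A, the beta subunits ARNT and ARNT2, the prolyl hydroxylases EGLN1, EGLN2 and EGLN3, the asparaginyl hydroxylase HIF1AN, and VHL. All 10 were present among the 60612 gene rows of the deposited table. Of these, 9 passed the minimum for testing, a mean of at least 0.5 FPKM (fragments scaled to gene length and library size) averaged over 6 libraries. HIF3A did not pass it.

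HIF is a pair of an alpha and a beta subunit. In oxygenated cells the EGLN enzymes hydroxylate prolines of the alpha subunit, using oxygen and 2-oxoglutarate, and the VHL protein then binds the hydroxylated subunit and directs a ubiquitin ligase to it. HIF1AN hydroxylates an asparagine that contacts the coactivators EP300 and CREBBP. Control of the alpha subunits is thus mostly at the protein level, which transcript counts do not measure. EGLN1 and EGLN3 are themselves known target genes of HIF, which makes a feedback loop. Liver tumours are often poorly oxygenated, and mitochondria are the main consumers of oxygen in a cell.

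The study sequenced poly(A) RNA of SNU-368, named by the submitters as a line of hepatocellular carcinoma, with a short hairpin against TFAM (shTFAM, 3 libraries) or a control hairpin (shCtrl, 3 libraries). TFAM is the factor that packages mitochondrial DNA and starts its transcription. No other treatment, oxygen level or time is given in the labels, nor the number of hairpins or whether a group is 1 clone. The design text counts the samples as cell lines, but does not state that they were derived or grown separately, and the p-values then reflect only library-to-library spread, which may be technical.

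The libraries held 46263488 to 61058282 counts in shTFAM and 43286024 to 50910536 in shCtrl. TFAM itself stood at 63.7, 65.0 and 56.7 CPM (counts scaled to library size) in shTFAM 1 to 3, against 82.2, 76.2 and 89.6 CPM in shCtrl 1 to 3. The groups did not overlap, and the log2 fold change of TFAM was -0.42 (SE 0.107, edgeR adjusted p 0.0377). The call ended without any 1 library (edgeR adjusted p 0.0676 to 0.0948) and when no minimum for testing was set (edgeR adjusted p 0.0644). On the second principal component (16.6% of the variance) shCtrl 3 stood apart from shCtrl 1 and shCtrl 2. Of 9 markers of hepatocytes and hepatoma, ALB, AFP, APOA1, APOB and TTR had no count in any library, the remaining secretory marker had 25 counts in shTFAM 3 and 0 elsewhere, and HNF4A averaged 1.83 and 1.60 CPM in shTFAM and shCtrl. The keratins KRT8 (966 and 633 CPM) and KRT18 (590 and 619 CPM) were abundant. KRT8 rose (log2 fold change 0.61, edgeR adjusted p 0.0160), while KRT18 did not pass (-0.069, edgeR adjusted p 0.724). The 9 markers summed to 1512 to 1641 CPM in shTFAM and 1125 to 1346 CPM in shCtrl, nearly all of it from these 2 keratins. Of 9 markers of leukocytes, endothelium and stroma, PTPRC and COL1A2 had no count in any library, while the macrophage marker CD68 and the stromal marker DCN rose (log2 fold changes 1.43 and 2.95, edgeR adjusted p 0.00892 and 0.00276). The other stromal markers tested did not pass: COL1A1, ACTA2 and RGS5 had log2 fold changes of 0.091, -0.68 and -0.31 (edgeR adjusted p 0.779, 0.226 and 0.551). Summed, these 9 markers ranged from 354 to 455 CPM in shTFAM and from 246 to 380 CPM in shCtrl, most of it from COL1A1. Their part in the results below was not tested.

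The promoters of the prolyl hydroxylase genes are shown because EGLN3 and EGLN1, both HIF targets, rose in shTFAM while EGLN2 did not pass. HIF binds a short core, ACGTG or GCGTG. RefSeq entries (GRCh38.p14) of 300 bases, from 250 before to 50 after a gene start, existed for 8 of the 10 genes, and ARNT2 and VHL had none. Both cores were searched on both strands, and matches are in capitals:
EGLN3 promoter, chr14:33951025-33951324, minus strand: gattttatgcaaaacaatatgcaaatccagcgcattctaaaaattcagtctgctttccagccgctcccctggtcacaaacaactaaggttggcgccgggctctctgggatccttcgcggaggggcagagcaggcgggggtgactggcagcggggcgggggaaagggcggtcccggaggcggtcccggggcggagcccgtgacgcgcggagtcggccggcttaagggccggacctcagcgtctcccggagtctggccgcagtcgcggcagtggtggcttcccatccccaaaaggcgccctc
EGLN1 promoter, chr1:231422238-231422537, minus strand: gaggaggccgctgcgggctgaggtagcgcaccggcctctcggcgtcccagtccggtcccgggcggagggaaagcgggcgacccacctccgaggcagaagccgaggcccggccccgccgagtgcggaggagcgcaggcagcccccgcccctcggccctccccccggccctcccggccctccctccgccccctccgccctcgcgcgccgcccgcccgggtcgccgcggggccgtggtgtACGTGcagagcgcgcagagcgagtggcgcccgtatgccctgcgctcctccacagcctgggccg
EGLN2 promoter, chr19:40798941-40799240, plus strand: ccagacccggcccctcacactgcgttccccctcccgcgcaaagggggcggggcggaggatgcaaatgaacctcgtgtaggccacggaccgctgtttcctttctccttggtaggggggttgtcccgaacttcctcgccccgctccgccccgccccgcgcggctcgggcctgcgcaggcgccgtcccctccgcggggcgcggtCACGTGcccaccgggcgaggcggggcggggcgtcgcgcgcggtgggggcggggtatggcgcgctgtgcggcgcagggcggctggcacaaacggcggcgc

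The EGLN1 window held 1 core, ACGTG, 13 bases before the start. The EGLN2 window, the upstream one of 2 entries, held ACGTG on both strands in 1 overlapping match. The EGLN3 window held neither core. Of the other genes with entries, HIF3A was not tested and the rest were not called. HIF1A and EPAS1 held 1 core each, HIF3A held 3, and ARNT and HIF1AN held none. For HIF1A and HIF3A these counts are from the most upstream entry, and their further entries held no core. A link between these matches and the changes was not tested. Of 35116 RefSeq promoters of this length, 48.4% held at least 1 core and 21.4% held ACGTG, so these letters are common in such windows. A match here is a description of the sequence and not of binding, and the window of EGLN3 covers only 1 of its starts: the row of the table runs from 33924227 to 34222953 on chromosome 14 (hg38), well beyond the start of the entry.

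Across the 9 tested genes, ARNT2, EGLN1 and EGLN3 rose in shTFAM cells and none fell. The other 6 did not pass an edgeR adjusted p of 0.05. Over all 14708 tested rows, 17.9% passed that threshold, 11.3% higher and 6.59% lower in shTFAM. The median log2 fold change was 0.54 for the 4 tested HIF subunits and 0.092 for the 4 hydroxylases and VHL together, beside -0.015 for all tested rows. Among the subunits 1 of 4 was called, and among the hydroxylases and VHL 2 of 5, so both sets held called and uncalled genes. In CPM the groups did not overlap, with shTFAM higher, for 6 of the 9 genes, beside 22.1% of all tested rows. With shTFAM lower this held for HIF1AN alone, beside 20.1%. ARNT, 1 of the 6, overlapped in FPKM.

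**Figure D1:**
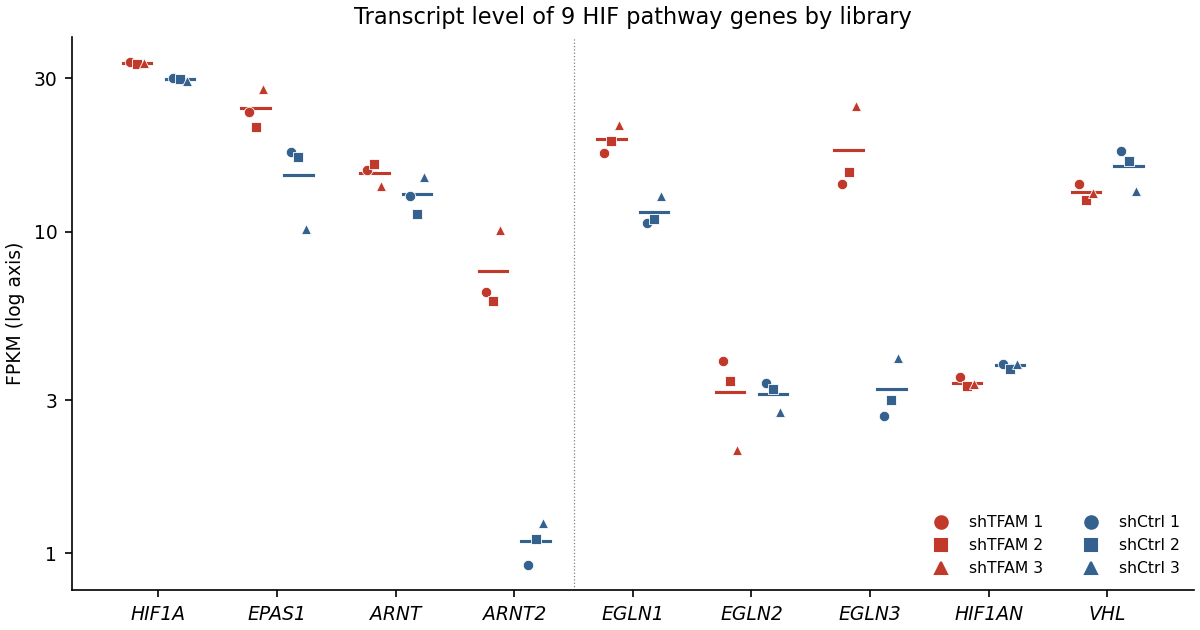
Transcript level in FPKM (log axis) of the 9 tested genes in each library, with shTFAM left of shCtrl; points are libraries, marked by replicate, and horizontal lines are group means. ARNT2 and EGLN3 were several times higher in every shTFAM library, whereas HIF1A lay between 29.4 and 33.8 FPKM in all libraries and EGLN2 overlapped between groups.

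HIF1A (chromosome 14, 61695513 to 61748258, plus strand, hg38; ENSG00000100644) encodes HIF-1alpha, the alpha subunit found in most tissues. It was the most abundant of the 10 genes in both groups, at 33.8, 33.3 and 33.5 FPKM in shTFAM 1 to 3 and 30.1, 29.8 and 29.4 FPKM in shCtrl 1 to 3. All shTFAM values lay above all shCtrl values, and the spread within each group was small. The log2 fold change of HIF1A, from counts, was 0.25 (SE 0.0781, unadjusted 95% interval 0.069 to 0.44) and did not pass (edgeR adjusted p 0.0645, and 0.0759 to 0.295 over the edgeR and limma alternatives). DESeq2 called it (DESeq2 adjusted p 0.0430), as it did 26.2% of all rows to which it gave an adjusted p. The estimate depended on scaling: it was 0.18 with library totals and 0.12 when libraries were scaled to counts outside mitochondrial DNA.

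EPAS1 (chromosome 2, 46293667 to 46386696, plus strand; ENSG00000116016) encodes HIF-2alpha, first known from endothelium and the main inducer of erythropoietin. Its level was 23.6, 21.2 and 27.8 FPKM in shTFAM 1 to 3 and 17.7, 17.1 and 10.2 FPKM in shCtrl 1 to 3. The groups did not overlap, but shCtrl 3 was well below the other controls. The log2 fold change of EPAS1 was 0.77 (SE 0.229, interval 0.23 to 1.31) and missed the threshold (edgeR adjusted p 0.0575). Without shCtrl 3 it was 0.55 (edgeR adjusted p 0.0568), and over single left-out libraries it ranged from 0.55 to 0.89. DESeq2 called EPAS1 (DESeq2 adjusted p 0.00768).

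HIF3A (chromosome 19, 46297046 to 46343433, plus strand; ENSG00000124440), whose product has variants that act as inhibitors of the other alpha subunits, was almost undetected. It had 0 counts in all 3 shTFAM libraries and 5, 0 and 0 counts in shCtrl 1 to 3. A count of 0 over the pooled shTFAM libraries allows up to 0.0195 CPM, counting 3 reads as the limit, and the pooled shCtrl value was 0.0352 CPM (exact 95% Poisson interval 0.0114 to 0.0821). These limits cover counting error only, and a difference was not detectable at this depth.

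The alpha subunits were compared by their ratio within each library. HIF1A was 1.43, 1.57 and 1.20 times EPAS1 in FPKM in shTFAM 1 to 3, and 1.70, 1.74 and 2.89 times in shCtrl 1 to 3. Every shTFAM ratio was below every shCtrl ratio, and the highest of all was that of shCtrl 3. The log2 ratio differed by -0.55 between shTFAM and shCtrl (two-sided exact permutation p 0.1, the smallest that 3 against 3 allows; 0.133 adjusted over 4 ratios), and by -0.30 without shCtrl 3. EPAS1 made up 41.8 ± 3.32% of the alpha subunit FPKM in shTFAM and 33.1 ± 6.39% in shCtrl (SD, n = 3 each).

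ARNT (chromosome 1, 150809713 to 150876708, minus strand; ENSG00000143437) encodes HIF-1beta, the common partner of the alpha subunits and of the aryl hydrocarbon receptor. It stood at 15.6, 16.3 and 13.9 FPKM in shTFAM 1 to 3 and at 13.0, 11.4 and 14.9 FPKM in shCtrl 1 to 3. In FPKM shCtrl 3 exceeded shTFAM 3, whereas in CPM with composition scaling the groups did not overlap (120.0, 127.8 and 113.8 CPM in shTFAM, 96.4, 86.1 and 110.2 CPM in shCtrl). The log2 fold change of 0.31 (SE 0.116, interval 0.032 to 0.58) did not pass (edgeR adjusted p 0.111), and it ranged from 0.18 to 0.39 over the alternatives.

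ARNT2 (chromosome 15, 80404350 to 80597933, plus strand; ENSG00000172379) encodes a second beta subunit, best known from brain and kidney, that can also pair with HIF alpha subunits. It was at 6.51, 6.08 and 10.2 FPKM in shTFAM 1 to 3, against 0.921, 1.11 and 1.24 FPKM in shCtrl 1 to 3. Every shTFAM library was several times above every shCtrl library, with shTFAM 3 the highest. ARNT2 averaged 72.2 ± 23.6 CPM in shTFAM and 9.77 ± 1.44 CPM in shCtrl (SD, n = 3 each), a log2 fold change of 2.89 (SE 0.251, interval 2.30 to 3.48, edgeR adjusted p 0.00197) or 7.39-fold. By log2 fold change ARNT2 ranked 87 from the top among 14708 tested rows, and EGLN3 125. Leaving out single libraries gave 2.58 (without shTFAM 3) to 3.03 (without shTFAM 2), and the call held in all 13 alternatives.

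In shares, ARNT2 supplied 29.5, 27.2 and 42.2% of the beta subunit FPKM in shTFAM 1 to 3, against 6.63, 8.87 and 7.72% in shCtrl 1 to 3. ARNT was 2.39, 2.68 and 1.37 times ARNT2 in the shTFAM libraries and 14.1, 10.3 and 11.96 times in the shCtrl libraries. The log2 ratio of ARNT to ARNT2 differed by -2.54 (exact permutation p 0.1, the smallest possible; 0.133 adjusted). ARNT was thus still the more abundant beta subunit in every library.

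**Figure D2:**
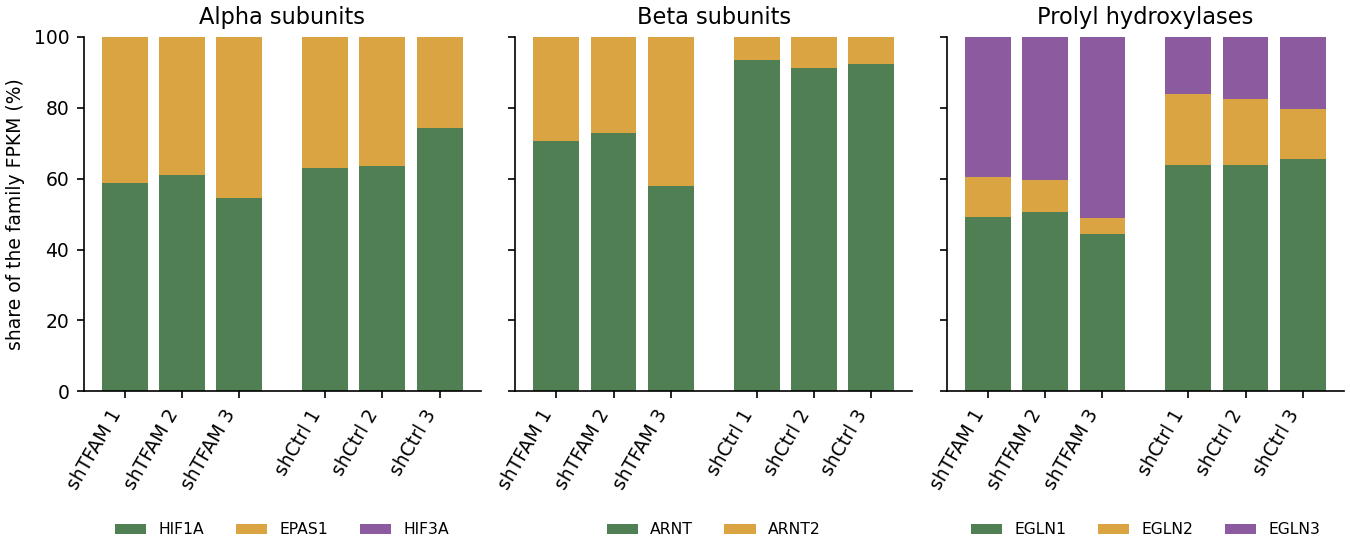
Share of each gene in the summed FPKM of its family (percent), in each library, with the 3 shTFAM libraries left of the 3 shCtrl libraries. ARNT2 and EGLN3 took a larger share in every shTFAM library than in any shCtrl library; HIF3A is too low to be seen.

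EGLN1 (chromosome 1, 231363751 to 231422287, minus strand; ENSG00000135766) encodes PHD2, regarded as the main HIF prolyl hydroxylase in oxygenated cells. It rose in shTFAM, to 17.6, 19.2 and 21.4 FPKM in shTFAM 1 to 3, against 10.7, 10.96 and 12.9 FPKM in shCtrl 1 to 3. In FPKM the gap between the groups was wider than the range within either, while in CPM it was about as wide as the shTFAM range. EGLN1 averaged 128 ± 16.7 CPM in shTFAM and 71.7 ± 7.41 CPM in shCtrl (SD, n = 3 each), with a log2 fold change of 0.84 (SE 0.131, interval 0.53 to 1.14, edgeR adjusted p 0.00855). It was called in all 13 alternatives, with values from 0.70 to 0.91.

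EGLN3 (chromosome 14, 33924227 to 34222953, minus strand; ENSG00000129521) encodes PHD3, whose transcript is known to be strongly inducible by low oxygen. Its level was 14.1, 15.3 and 24.7 FPKM in shTFAM 1 to 3 and 2.68, 3.00 and 4.04 FPKM in shCtrl 1 to 3. The highest values were those of shTFAM 3 and shCtrl 3, whose numbers only name libraries and do not pair them, and the lowest shTFAM value was still above 3 times the highest shCtrl value. EGLN3 averaged 164 ± 57.7 CPM in shTFAM and 27.6 ± 5.91 CPM in shCtrl (SD, n = 3 each), a log2 fold change of 2.57 (SE 0.276, interval 1.92 to 3.22, edgeR adjusted p 0.00304) or 5.92-fold. Without shTFAM 3 it was 2.24 and without shCtrl 3 it was 2.74. The call held in all 13 alternatives.

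EGLN2 (chromosome 19, 40798996 to 40808434, plus strand; ENSG00000269858) encodes PHD1, which is mainly nuclear. It was at 3.97, 3.45 and 2.10 FPKM in shTFAM 1 to 3 and at 3.39, 3.25 and 2.76 FPKM in shCtrl 1 to 3. The groups overlapped, and the lowest of the 6 values was that of shTFAM 3. The log2 fold change of 0.092 (SE 0.219, interval -0.42 to 0.61, edgeR adjusted p 0.804) had no stable direction: it was -0.033 with scaling to counts outside mitochondrial DNA, -0.092 without shTFAM 1 and 0.30 without shTFAM 3. The interval allows a change of up to 0.61 upward, so EGLN2 is not shown to be unaltered.

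Together the prolyl hydroxylase transcripts summed to 35.6, 38.0 and 48.2 FPKM in shTFAM 1 to 3, against 16.7, 17.2 and 19.7 FPKM in shCtrl 1 to 3. EGLN3 made up 43.7 ± 6.48% of that sum in shTFAM and 17.98 ± 2.25% in shCtrl (SD, n = 3 each), while EGLN2 made up 8.20 ± 3.47% and 17.7 ± 3.28%. The ratio of EGLN3 to EGLN1 was 0.804, 0.797 and 1.15 in the shTFAM libraries and 0.252, 0.273 and 0.312 in the shCtrl libraries, a log2 difference of 1.70 (exact permutation p 0.1, the smallest possible; 0.133 adjusted). The ratio of EGLN1 to EGLN2 was 4.43, 5.57 and 10.2 in shTFAM and 3.15, 3.38 and 4.68 in shCtrl. These last values overlapped between groups (log2 difference 0.78, exact permutation p 0.2, also 0.2 adjusted), and the difference was 0.43 without shTFAM 3.

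**Figure D3:**
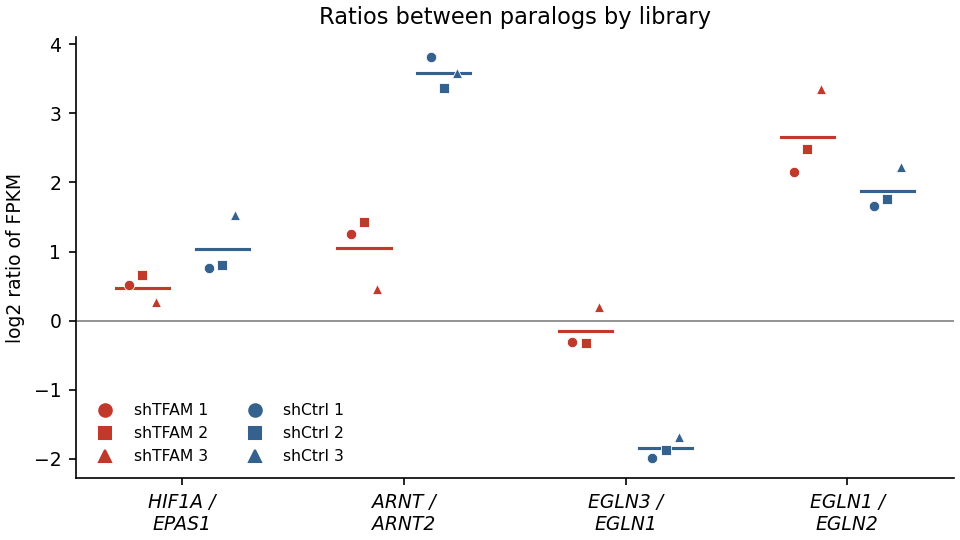
Log2 ratio of FPKM between paralogs in each library, shTFAM left of shCtrl; points are libraries and lines group means, and 0 means equal FPKM. The groups are apart for HIF1A to EPAS1, ARNT to ARNT2 and EGLN3 to EGLN1, and overlap for EGLN1 to EGLN2.

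HIF1AN (chromosome 10, 100529072 to 100546581, plus strand; ENSG00000166135) encodes factor inhibiting HIF, the asparaginyl hydroxylase. Its level was 3.54, 3.31 and 3.36 FPKM in shTFAM 1 to 3 and 3.88, 3.76 and 3.90 FPKM in shCtrl 1 to 3. Each shTFAM value lay below each shCtrl value by a narrow margin. The log2 fold change of -0.095 (SE 0.0856, interval -0.30 to 0.11) did not pass (edgeR adjusted p 0.474), nor in any of 13 alternatives, which gave -0.23 to -0.070.

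VHL (chromosome 3, 10141778 to 10153667, plus strand; ENSG00000134086) encodes the substrate receptor of the ligase that recognises hydroxylated alpha subunits. It stood at 14.0, 12.6 and 13.3 FPKM in shTFAM 1 to 3 and at 17.9, 16.6 and 13.4 FPKM in shCtrl 1 to 3. The value of shCtrl 3 lay within the shTFAM range. The log2 fold change of VHL was -0.18 (SE 0.128, interval -0.49 to 0.12, edgeR adjusted p 0.348) and -0.31 without shCtrl 3. It was -0.26 with library totals and -0.32 when libraries were scaled to counts outside mitochondrial DNA. None of these estimates passed.

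**Figure D4:**
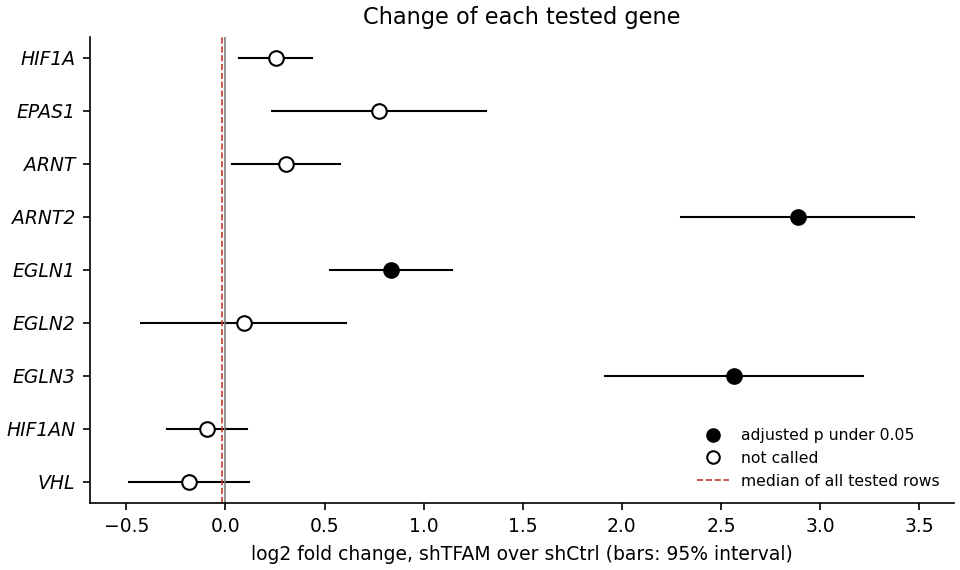
Log2 fold change of each tested gene, shTFAM over shCtrl, with its unadjusted 95% interval from edgeR; filled points passed an adjusted p of 0.05. ARNT2, EGLN3 and EGLN1 are filled, at 2.89, 2.57 and 0.84, and the dashed line marks the median of all tested rows at -0.015.

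The order of the levels differed between the groups. By mean FPKM it ran HIF1A, EPAS1, EGLN1, EGLN3, ARNT, VHL, ARNT2, HIF1AN, EGLN2 and HIF3A in shTFAM, and HIF1A, VHL, EPAS1, ARNT, EGLN1, HIF1AN, EGLN3, EGLN2, ARNT2 and HIF3A in shCtrl. Among the 6 most abundant genes in shTFAM, the library values of each neighbouring pair after HIF1A overlapped. These ranges thus resolve no step between neighbours from EPAS1 down to VHL. Within every shTFAM library, however, EPAS1 exceeded EGLN1 and ARNT exceeded VHL. All values of EPAS1 and of EGLN1 also lay above all values of ARNT and VHL. In shCtrl the values of neighbours overlapped from VHL down to EGLN1 and again from HIF1AN down to EGLN2. EGLN3 thus stood in shCtrl with the low genes HIF1AN and EGLN2, and in shTFAM with EGLN1 and ARNT.

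Rows that overlap these genes were checked, because no source used here states whether counting used the strand. HIF1A-AS3, annotated on the strand opposite HIF1A, had 82, 186 and 350 counts in shTFAM 1 to 3 and 20, 19 and 78 in shCtrl 1 to 3, a log2 fold change of 2.31 that did not pass (edgeR adjusted p 0.0556; 0.0250 without shCtrl 3; DESeq2 adjusted p 0.00218). HIF1A itself had 9334 to 12602 counts in shTFAM and 7917 to 9207 in shCtrl. The read-through row RAB4B-EGLN2, which runs over EGLN2 on the same strand, had 4, 101 and 81 counts in shTFAM 1 to 3 and 24, 0 and 0 in shCtrl 1 to 3, beside 1017 to 1444 for EGLN2 in shTFAM and 1034 to 1283 in shCtrl. Reads of EGLN2 and of this row cannot be told apart with certainty. HIF1AN is overlapped on the opposite strand by NDUFB8, a complex I subunit, over 808 bases, and by AL133352 over 806 bases. NDUFB8 had 2766 to 4824 counts in shTFAM and 2934 to 4848 in shCtrl, and AL133352 had 331, 1687 and 1658 in shTFAM 1 to 3 and 917, 1336 and 135 in shCtrl 1 to 3, beside 2502 to 3409 for HIF1AN in shTFAM and 2754 to 3131 in shCtrl. Neither passed (log2 fold changes 0.022 and 0.57, edgeR adjusted p 0.955 and 0.666), and reads in the shared bases may be split between these rows and HIF1AN. EGLN3-AS1 had 16 counts over all shTFAM libraries and 0 over all shCtrl libraries. Within ARNT2, an opposite-strand row of AC108451 had 42 counts over all shTFAM libraries and 9 over all shCtrl libraries. ARNT2 itself had 2560 to 5743 counts in shTFAM and 364 to 545 in shCtrl.

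Genes that act with these 10 were read from lists by role. Of 4 partners of VHL in the ligase none passed: ELOB was at 95.8 and 85.8 CPM in shTFAM and shCtrl and ELOC at 62.6 and 61.2 CPM, and the median log2 fold change of the list was 0.037. Of 4 coactivators and CITED genes, CITED2, which competes with HIF for the coactivators and is itself inducible by low oxygen, rose to 113 ± 18.3 CPM in shTFAM, against 71.4 ± 3.43 CPM in shCtrl (SD, n = 3 each; log2 fold change 0.67, edgeR adjusted p 0.0175; 0.0581 without shCtrl 1 and 0.0646 without shCtrl 2). EP300 and CREBBP, the coactivators themselves, had log2 fold changes of 0.027 and -0.012.

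Of 13 genes that act on the stability of HIF or of the hydroxylases, 2 rose and 2 fell (median log2 fold change -0.045). The chaperones HSP90AA1 and HSP90AB1, which stabilise HIF-1alpha, fell by 0.69 and 0.52 on the log2 scale (edgeR adjusted p 0.0247 and 0.0436). WSB1, a ubiquitin ligase adaptor reported to act on VHL, rose by 1.09, and FKBP8, which binds PHD2, by 0.53 (edgeR adjusted p 0.0299 and 0.0383). With any 1 library left out, and so fewer samples tested, FKBP8 and HSP90AB1 no longer passed (edgeR adjusted p 0.0519 to 0.101 and 0.0626 to 0.116), while their log2 fold changes stayed at 0.39 to 0.61 and at -0.61 to -0.40. Over all 13 alternatives the call was lost in 10 for FKBP8 and in 7 for HSP90AB1. For both genes these include fits that kept all 6 libraries. WSB1 still passed without shTFAM 1 and HSP90AA1 without shTFAM 2, but neither passed without any of the other libraries (0.0585 to 0.0735 and 0.0524 to 0.0716).

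Of 14 relatives with the PAS domain, 10 were tested and 2 rose. NPAS2, a partner of the clock protein BMAL1, stood at 11.3, 11.1 and 11.3 CPM in shTFAM 1 to 3 and at 5.75, 6.16 and 4.66 CPM in shCtrl 1 to 3 (log2 fold change 1.02, edgeR adjusted p 0.00945). The call of NPAS2 ended in limma, with 0.33 on log2(FPKM + 1) (limma adjusted p 0.0611) and 0.80 on log2(FPKM + 0.1) (limma adjusted p 0.0772). NCOA3, a coactivator of nuclear receptors, rose by 0.48 (edgeR adjusted p 0.0215), a call that ended without shTFAM 2, shTFAM 3, shCtrl 1 or shCtrl 2 (0.0608 to 0.0758). AHR, the aryl hydrocarbon receptor and the other classic partner of ARNT, was at 27.1 and 26.4 CPM in shTFAM and shCtrl (log2 fold change 0.035, edgeR adjusted p 0.895). Over these 4 lists 5 of 31 tested genes rose and 2 fell, beside 11.3% and 6.59% of all tested rows, and single left-out libraries gave 1 (without shCtrl 1 or shCtrl 2), 2 (without shTFAM 3), 3 (without shTFAM 2 or shCtrl 3) and 4 (without shTFAM 1) called genes.

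Of 14 enzymes that make or use 2-oxoglutarate, succinate and fumarate, the cosubstrate of the hydroxylases and 2 of their inhibitors, IDH2 rose and FH fell, beside 11.3% higher and 6.59% lower among all tested rows. IDH2, the mitochondrial isocitrate dehydrogenase, was at 142 ± 29.8 CPM in shTFAM and 93.7 ± 3.54 CPM in shCtrl (log2 fold change 0.60, edgeR adjusted p 0.0361), and FH, fumarate hydratase, at 143 ± 8.37 and 185 ± 9.51 CPM (SD, n = 3 each; -0.37, edgeR adjusted p 0.0341). The call of FH ended without any 1 library (0.0578 to 0.0891) and that of IDH2 without shTFAM 1, shCtrl 1, shCtrl 2 or shCtrl 3 (0.0604 to 0.0940) and with scaling outside mitochondrial DNA (0.0513). Both calls also ended when no minimum for testing was set (edgeR adjusted p 0.0664 for FH). The list had a median log2 fold change of -0.014.

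Target genes of HIF were listed separately. Of 26 targets, a list chosen with earlier results of these data known, 23 rose and none fell. Over all tested rows 11.3% rose and 6.59% fell. The median log2 fold change was 1.70 for the targets and -0.015 for all tested rows. Without shCtrl 1 or without shCtrl 2, 18 targets rose. The smallest p belonged to BNIP3 and BNIP3L, which act in mitophagy, the lipoprotein lipase inhibitor ANGPTL4, and NDRG1. Their log2 fold changes were 2.63, 1.74, 4.56 and 2.93 (edgeR adjusted p 0.00229, 0.00271, 0.00239 and 0.00275). VEGFA (0.63), PFKFB3 (0.95) and DDIT4 (0.53) had positive values and did not pass (edgeR adjusted p 0.174, 0.247 and 0.0695). EGLN3, at 2.57, lay above the median of these targets, and EGLN1, at 0.84, below it. Among 7 genes often cited as targets of HIF-2alpha, EPO, POU5F1 and ANGPT2 were below the minimum for testing. PLIN2, a lipid droplet coat protein, rose by 2.35 on the log2 scale (edgeR adjusted p 0.00285), while TGFA (0.26) and CCND1 (-0.25) did not pass.

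**Figure D5:**
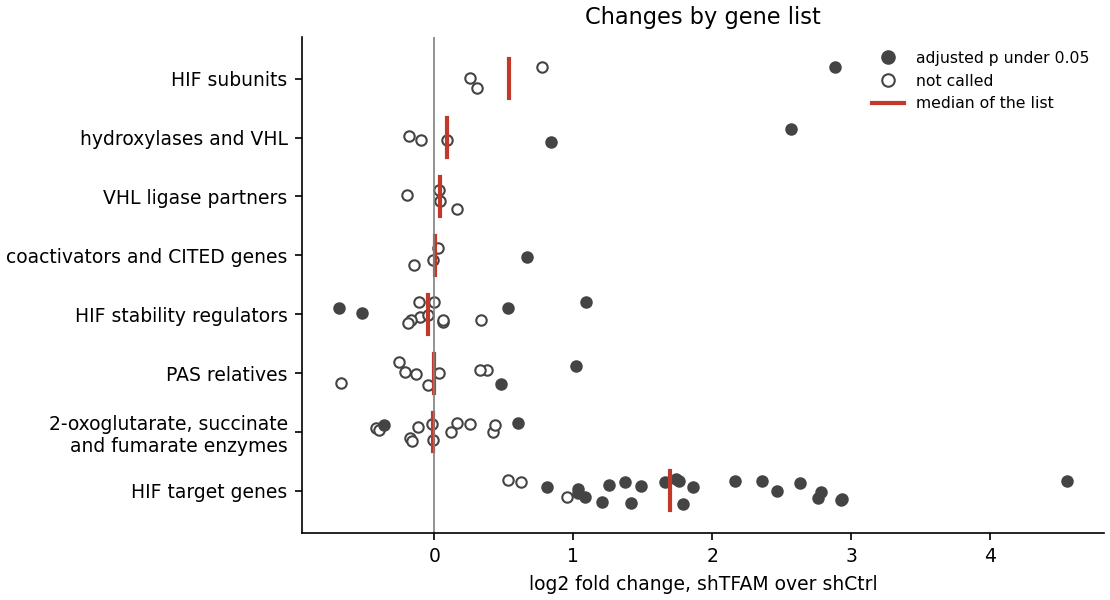
Log2 fold change, shTFAM over shCtrl, of the tested genes of each list; each point is a gene, filled where the adjusted p was under 0.05, and red lines are medians. HIF target genes have a median of 1.70, whereas the lists of ligase partners, coactivators, stability regulators, PAS relatives and metabolic enzymes have medians near 0.

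The rows most like HIF1A, EPAS1 and EGLN3 over the 6 libraries were found among 6594 rows averaging 5 FPKM or more, by Pearson's correlation of log2 CPM. The difference between the groups enters each such value, and so do the shared libraries, so they are a description only. For EGLN3 they were SFXN3, a mitochondrial serine carrier, CA9, a carbonic anhydrase and HIF target, and PFDN5, a prefoldin subunit (r 0.999 for each). CA9 stood at 225, 236 and 461 FPKM in shTFAM 1 to 3 and at 36.7, 39.5 and 52.5 FPKM in shCtrl 1 to 3, and the groups did not overlap. For HIF1A they included SIK1, a salt-inducible kinase, and KRT17, a keratin (r 0.999 for each), which both had larger log2 fold changes than HIF1A, 1.26 and 2.93. For EPAS1 they were APLP1, GTPBP1 and NSD3 (r 0.999, 0.999 and 0.998), each lowest in shCtrl 3, as EPAS1 was.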

How the data were processed

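RNA-seq of 6 SNU-368 libraries was analysed from 1 table with 60612 Ensembl gene rows. Per the file headers, the authors deposited raw counts per gene and FPKM for each library; a count of 0 carries an FPKM of at most 0.0001 and was read as 0. The submitters' processing notes name cutadapt 1.9, HISAT2 2.0.4, StringTie 1.3.4d and Bowtie 0.12.2 and the builds hg38 and mm8, with no roles. Per the labels' protocols, the second cDNA strand carried dUTP; the counter, annotation and strand setting are not given in the sources used here. Coordinates are human and given as hg38.

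The treatment label gave the groups, and titles matched the columns. Rows averaging 0.5 FPKM or more (14708, with 99.4 to 99.5% of counts) were tested with edgeR 4.0.16 (quasi-likelihood, TMM factors 0.951 to 1.04, two-sided, Benjamini-Hochberg over all tested rows) in R 4.3.3. SE is the log2 fold change over the root of F. CPM use TMM-scaled totals, except the pooled HIF3A values, which use unscaled totals. Ratios of FPKM were compared by exact permutation (SciPy 1.17.1). Alternatives were library totals, counts outside mitochondrial DNA, DESeq2 1.42.0, other filters, limma 3.58.1 on log2(FPKM + 1) and log2(FPKM + 0.1), and each library left out. No replicate pair agreed within sampling noise (chi-square per degree of freedom at least 42.6). On 3 sets of simulated counts over 14708 genes for shTFAM against shCtrl, with 200 changed, 6.97% of changes of 0.5 log2 units, 56.2% of 1 and 90.4% of 2 were recovered, and 0.0391% of unchanged genes were called.

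The genes and lists were chosen with earlier results of these data known. Named were the 10 genes, TFAM, up to 4 called genes per list by p or the 2 most abundant where none was called, 3 rows most like HIF1A, EPAS1 and EGLN3, and overlapping annotated rows. AHR, EP300, CREBBP, VEGFA, PFKFB3, DDIT4, TGFA, CCND1 and the markers other than KRT8, CD68 and DCN were named after their values were seen. A gene that this rule names is not reported here.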

Additional observations from a re-analysis of the deposited data

How the results depend on the processing

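ARNT2, EGLN1 and EGLN3 passed in all 13 alternatives, each with a positive log2 fold change. DESeq2 called 5 of the 9 tested genes, adding HIF1A and EPAS1; over all rows it called 3837, or 26.2% of those with an adjusted p. EGLN2 changed sign with scaling outside mitochondrial DNA (-0.033), in limma on log2(FPKM + 1) (-0.010) and log2(FPKM + 0.1) (-0.023), and over single left-out libraries (-0.092 to 0.30). ELOC did so with library totals (-0.044), scaling outside mitochondrial DNA (-0.098) and limma (-0.050 and -0.054), and over left-out libraries (-0.076 to 0.12). The cause was not tested. Left-out libraries gave 1 to 4 called pathway genes, against 7, and 1148 to 2065 called rows, against 2630; fewer samples were tested there. The 2630 rows were 1661 higher and 969 lower; library totals gave 1353 and 1266, scaling outside mitochondrial DNA 1198 and 1771, with a median log2 fold change of -0.15 for all rows, and limma 1278 and 1339 or 1264 and 1317. All 4 ratios kept their sign in the alternatives run, but 3 against 3 libraries cannot reach an exact p under 0.05. No paired analysis was possible because titles give the groups no shared replicate numbers. Changes of 0.5 log2 units were rarely recovered in simulation. It held only 200 changed genes, against 2630 called rows here, so its recovered share may not hold for these data. For HIF1A, EPAS1, ARNT, HIF1AN, VHL and EGLN2 the limit is given by their intervals, and none is shown to be unaltered. The unadjusted intervals of HIF1A, EPAS1 and ARNT were wholly positive, and those of HIF1AN, VHL and EGLN2 spanned both signs.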
